A study of Homo sapiens with 5 samples.

Results

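The mitochondrial genome transcripts are the 37 genes whose symbol starts with MT-, out of 56632 genes in each deposited table. They comprise 13 mRNAs, 2 rRNAs and 22 tRNAs, and were found by symbol, a rule that uses no measured value. All 37 were found by their Ensembl gene identifier. RNA was measured by RNA immunoprecipitation followed by sequencing (RIPseq) in MCF10A, a non-tumorigenic human mammary epithelial line, and no treatment was given. Of the 5 libraries, an input and a FLAG antibody RIP came from MCF10A cells expressing FLAG-tagged CBFB. The others were an input and 2 repeat hnRNPK antibody RIPs from parental MCF10A cells. For its protein pulldowns the study expressed FLAG-CBFB stably in CBFB knockout MCF10A cells. Whether these libraries came from such knockout cells is not stated in the sources used here. CBFB is the non-DNA-binding partner of RUNX transcription factors, and hnRNPK is an RNA-binding protein with a known preference for C-rich RNA. Each input and the FLAG-CBFB RIP are single libraries, the tagged protein is present only in the FLAG-CBFB cells, and no immunoprecipitation with an unrelated antibody was analysed here. The labels name a TruSeq mRNA kit, which selects polyadenylated RNA, for all libraries, while the study's methods for its RNA sequencing name removal of rRNA. Which step these libraries went through cannot be told from the files, and it bears on the rRNA and tRNA levels.

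The human mitochondrial genome is transcribed from both strands into long precursors, and excision of the tRNAs that lie between the other genes releases the mRNAs and rRNAs. The mRNAs encode subunits of the respiratory chain complexes I, III and IV and of the ATP synthase, complex V, and the rRNAs build the mitochondrial ribosome. Most mitochondrial mRNAs carry short poly(A) tails, and MT-ATP8 with MT-ATP6, as well as MT-ND4L with MT-ND4, share a bicistronic mRNA. MT-ND6 and a minority of the tRNAs are read from the opposite strand to all other members.

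The members are on the mitochondrial chromosome, at positions given here by the GENCODE 29 annotation on GRCh38. Of the 37, 28 are annotated on the plus and 9 on the minus strand, and the length of all 37 in the deposited tables equalled the GENCODE 29 length. The 13 mRNAs ranged from 207 nt (MT-ATP8) to 1812 nt (MT-ND5). The sequences below belong to the mRNAs with the highest FPKM in the hnRNPK RIPs (MT-ATP8) and in the FLAG-CBFB RIP (MT-ND3) and to the tRNA with the most counts in all, and runs of 3 or more C are in capitals. MT-ATP8, the smallest mRNA, is printed whole (chrM:8366-8572, plus strand), MT-ND3 by its first 300 bases (chrM:10059-10358, plus strand), and the tRNA MT-TA whole (chrM:5587-5655, minus strand), all 5′ to 3′.
MT-ATP8: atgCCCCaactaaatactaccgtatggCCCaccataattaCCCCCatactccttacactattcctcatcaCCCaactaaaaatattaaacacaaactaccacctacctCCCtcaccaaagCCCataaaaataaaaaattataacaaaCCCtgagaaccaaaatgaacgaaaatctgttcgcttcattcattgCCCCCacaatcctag
MT-ND3: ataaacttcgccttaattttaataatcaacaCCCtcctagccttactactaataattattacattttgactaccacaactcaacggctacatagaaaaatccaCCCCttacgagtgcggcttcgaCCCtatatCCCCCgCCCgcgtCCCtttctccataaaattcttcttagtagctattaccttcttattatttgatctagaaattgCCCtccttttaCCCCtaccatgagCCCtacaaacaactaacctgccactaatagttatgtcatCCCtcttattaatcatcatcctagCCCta
MT-TA: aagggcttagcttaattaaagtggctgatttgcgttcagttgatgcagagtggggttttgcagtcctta
MT-ATP8 held 69 C in 207 nt in 8 capitalised runs, the MT-ND3 stretch held 94 C in 300 nt in 11 such runs, and MT-TA held 9 C in 69 nt and no such run. The 60-nt window richest in C follows for 2 mRNAs whose share of mitochondrial RNA was higher in every RIP (MT-ND1, MT-CYB), 2 whose share was lower in every RIP (MT-CO1, MT-CO3) and the minus-strand MT-ND6.
MT-ND1 (chrM:3484-3543, plus): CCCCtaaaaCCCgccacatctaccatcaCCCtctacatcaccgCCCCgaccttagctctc
MT-CYB (chrM:15485-15544, plus): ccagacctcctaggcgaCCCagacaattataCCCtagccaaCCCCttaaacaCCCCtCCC
MT-CO1 (chrM:6419-6478, plus): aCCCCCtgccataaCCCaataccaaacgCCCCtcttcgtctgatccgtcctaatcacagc
MT-CO3 (chrM:9243-9302, plus): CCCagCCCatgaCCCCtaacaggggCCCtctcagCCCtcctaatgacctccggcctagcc
MT-ND6 (chrM:14560-14619, minus): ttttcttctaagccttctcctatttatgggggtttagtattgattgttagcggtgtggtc
These windows held 31, 28, 27, 29 and 9 C, so those of MT-CO1 and MT-CO3 were about as rich in C as the others from the plus strand.

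The depth behind the members was large. The libraries held 69786576 to 106855647 expected counts (RSEM's estimate of fragments per gene), of which the members took 4559047 in the FLAG-CBFB cell input, 56496045 after FLAG immunoprecipitation, 7802321 in the parental input, and 87081105 and 78371704 in hnRNPK RIPs 1 and 2. The widest 95% Wilson interval of a group's share of these totals spanned 0.0905 percentage points, and it covers counting error only. All 10 epithelial markers checked had an FPKM of at least 1 in both inputs, and the 4 matched markers of leukocytes, luminal epithelium and fibroblasts stayed at or under 1.77 FPKM in every library. Of these 4, the fibroblast marker COL1A1 also exceeded 1 FPKM in both inputs, at 1.08 (FLAG-CBFB cells) and 1.77 (parental). The lowest epithelial marker, KRT14, was at 6.78 and 1.81 FPKM there. As reference, GAPDH went from 3914 to 1361 FPKM in the FLAG-CBFB RIP and from 4839 to 125 and 114 FPKM in the hnRNPK RIPs. For the same libraries, ACTB was at 1691 and 1137 FPKM, and at 2933, 613 and 685 FPKM. RUNX1 was at 14.1 and 25.1 FPKM, and at 10.4, 17.3 and 12.2 FPKM. FPKM is relative to the library total, of which the members took 4.27% and 62.2% in the FLAG-CBFB cell input and RIP. In the parental input and the hnRNPK RIPs they took 11.2%, 84.5% and 86.6%. A lower FPKM of a nuclear gene in a RIP therefore does not by itself show depletion of that gene against other nuclear genes.

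Levels between genes were compared per length, as FPKM. In the FLAG-CBFB RIP and in each hnRNPK RIP, the 13 mitochondrial mRNAs held ranks 1 to 13 by FPKM among all genes, and MT-RNR2, the large mitochondrial rRNA, held rank 14. In the inputs they were already high but interleaved with nuclear genes, at ranks 2 to 125 in the FLAG-CBFB cells and 1 to 83 in the parental cells. The highest of the mRNAs was MT-ATP8 in the FLAG-CBFB cell input (9303 FPKM), MT-CO2 in the parental input (26517 FPKM), MT-ND3 in the FLAG-CBFB RIP (193984 FPKM) and MT-ATP8 in both hnRNPK RIPs (318763 and 322109 FPKM). MT-ND5 and MT-ND6 held the last 2 places among the 13 in all 5 libraries. The ratio of the highest to the lowest mRNA was 8.78 and 13.4 for the inputs, 11.6 with FLAG-CBFB, and 18.3 and 16.5 with hnRNPK. The FPKM of MT-ATP8 rested on an effective length (the length RSEM uses) of 48.8 to 56.3 nt. By counts MT-ATP8 took 1.99% and 1.90% of the mitochondrial total in the hnRNPK RIPs.

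**Figure D1:**
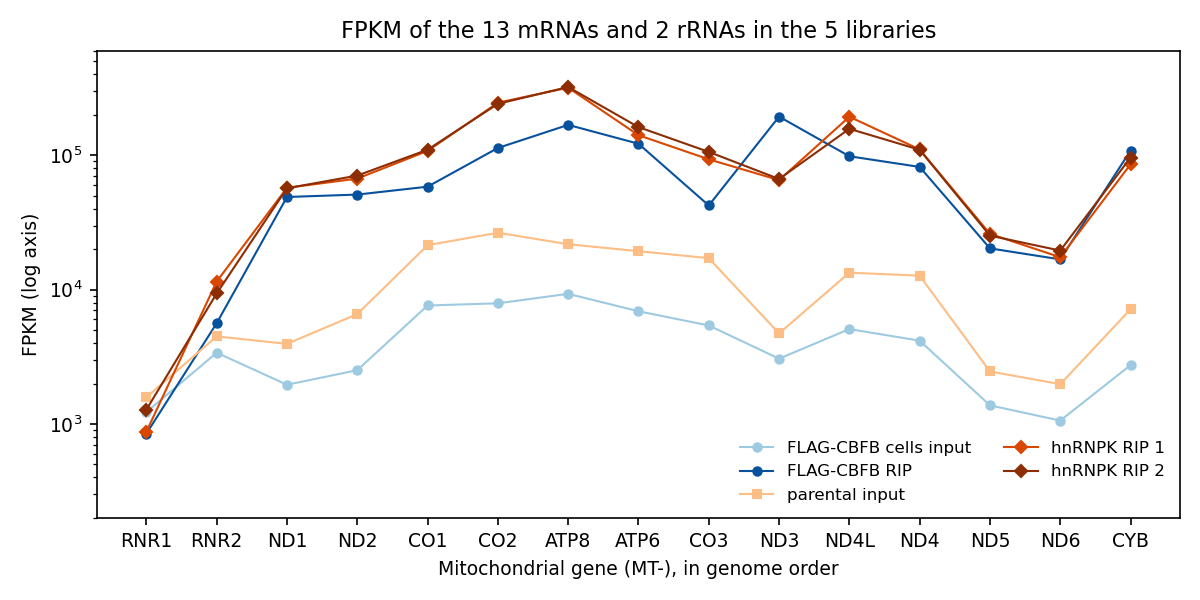
FPKM (log axis) of the 13 mitochondrial mRNAs and 2 rRNAs in genome order, with a line for each of the 5 libraries. The RIP lines lie above both inputs at every mRNA, MT-ND3 stands out in the FLAG-CBFB RIP at 193984 FPKM, and MT-RNR1 is the only RNA of the 15 at which all RIPs lie below their inputs.

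The members were then placed against the other genes. Enrichment was the difference in log2(FPKM + 1) between a RIP and its own input, centred on its mean over 11764 genes (those averaging 1 FPKM or more across the libraries), and a gene above 2 was called enriched. In the FLAG-CBFB RIP 14 of the 15 members analysed were above 2, while 4.37% of all analysed genes were. In the mean of the hnRNPK RIPs all 15 were above 2, against 8.20% of all genes. The 13 mRNAs accounted for most of both counts, and the lowest of them, MT-CO1, was at 4.28 with FLAG-CBFB and at 4.99 ± 0.07 (SD, n = 2) with hnRNPK.

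The hnRNPK RIPs were also tested against the parental input with edgeR on counts, on the TMM scale, in which most genes are taken to be unchanged. Of the 37 members, 21 passed the filter of a mean of 10 counts, namely the 13 mRNAs, both rRNAs and 6 tRNAs, all of these 6 on the minus strand. All 21 were called higher (adjusted p under 0.05 and log2 fold change above 2), while 15.8% of the 15353 genes tested were called higher. The filter took in the RIPs, and some of the tRNAs (at 2 and 5 counts in the parental input) passed it only through them. The calls of those tRNAs were thus favoured by the filter. No member was called lower, against 0.964% of all genes. The edgeR log2 fold changes ran from 3.28 ± 0.38 (SE) for MT-RNR1 (adjusted p = 4.8e-09) to 7.67 ± 0.43 for MT-ND1 (adjusted p = 4.1e-16). The input is 1 library, so the spread in this test came from the hnRNPK repeats alone, and nothing states that the repeats came from separate cultures.

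The direction for the rRNAs depended on the scale. MT-RNR1, the small mitochondrial rRNA, was at 1225 FPKM in the FLAG-CBFB cell input and 847 FPKM in the RIP, and at 1580 FPKM in the parental input with 876 and 1278 FPKM after hnRNPK immunoprecipitation. Its uncentred log2(FPKM + 1) difference was -0.53 with FLAG-CBFB and -0.85 and -0.31 with hnRNPK, whereas the centred values were 0.81, 1.76 and 2.37. MT-RNR2 was higher on either scale, at 3391 and 5622 FPKM in the FLAG-CBFB input and RIP, and at 4488, 11485 and 9364 FPKM in the parental input and hnRNPK RIPs. Because the scale decides such comparisons, the members were next described by their share of the mitochondrial total within each library, which needs no scaling between libraries.

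By RNA class, the rRNAs took a smaller share in every RIP. They made up 13.3% of mitochondrial counts in the FLAG-CBFB cell input and 1.37% in the FLAG-CBFB RIP. In the parental cells they made up 6.73% of the input and 1.97% and 1.62% of the hnRNPK RIPs. The log2 ratio of shares, RIP over input, was -3.28 with FLAG-CBFB and -1.91 ± 0.20 (SD, n = 2) with hnRNPK, and the inputs themselves differed by 0.98 (FLAG-CBFB cells over parental). All 3 RIPs lay below both inputs. The share of MT-RNR1 went down further than that of MT-RNR2, with log2 ratios of -4.39 against -3.13 with FLAG-CBFB and -3.53 ± 0.36 against -1.74 ± 0.23 with hnRNPK. The count of MT-RNR2 per count of MT-RNR1 was accordingly 4.91 and 5.01 for the inputs, 11.7 with FLAG-CBFB, and 23.2 and 12.98 with hnRNPK. The mitochondrial mRNAs took 86.7% and 93.3% of the inputs and 98.0% to 98.6% of the RIPs.

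The tRNAs gave few counts, as is usual for short RNAs in such libraries. The 22 together had 100 and 289 counts in the FLAG-CBFB cell input and RIP, and 177, 1166 and 618 counts in the parental input and the hnRNPK RIPs. All tRNAs were listed at an FPKM of 0 because their effective length was 0, and 4 (MT-TG, MT-TD, MT-TK and MT-TR) had no count in any library. The minus strand held 8 of the 22 tRNA genes and 93.0% (95% Wilson interval 86.3 to 96.6) to 98.5% (97.6 to 99.0) of the tRNA counts in each library, and no plus-strand tRNA exceeded 7 counts. Whether the reads were assigned by strand is not stated, so counts of minus-strand tRNAs cannot be told apart from RNA of the opposite strand. MT-TA, the alanine tRNA printed above, had the most counts summed over the 5 libraries, with 65 and 112 counts in the FLAG-CBFB cells and 46, 738 and 324 counts in the parental cells. In the parental input MT-TS1 was above it, with 75 counts. The share of MT-TA in mitochondrial counts was lower in the FLAG-CBFB RIP, with a log2 ratio of -2.85 (95% counting interval -3.30 to -2.38), and the hnRNPK repeats lay on either side of their input. The other 21 tRNAs did not exceed 157 counts in any library.

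By complex, the mRNAs of complexes I and III took a larger share in every RIP and those of complex IV a smaller share. The 7 complex I mRNAs, which encode core subunits of NADH dehydrogenase, went from 29.5% to 43.5% of mitochondrial counts with FLAG-CBFB and from 28.5% to 38.3% and 36.9% with hnRNPK. Complex III has a single member, MT-CYB (cytochrome b), which went from 6.22% to 17.0% with FLAG-CBFB and from 6.25% to 9.86% and 10.8% with hnRNPK. The 3 complex IV mRNAs, which encode core subunits of cytochrome c oxidase, went from 41.7% to 26.6% with FLAG-CBFB and from 48.4% to 39.3% in both hnRNPK RIPs. For these 3 complexes no RIP overlapped the inputs. Within complex IV, only MT-CO1 and MT-CO3 went down in every RIP. MT-CO2 was at 9.50% and 9.45% in the FLAG-CBFB cell input and RIP. With hnRNPK it went up, from 12.4% to 15.0% and 14.3%. By counts, the 2 complex V mRNAs differed least, from 9.30% to 11.5% with FLAG-CBFB and from 10.1% to 10.5% and 11.5% with hnRNPK. By summed FPKM this did not hold with hnRNPK. There complex V went from 24.9% to 29.8% and 31.1%, beside 27.7% to 34.8% and 32.6% for complex I. With FLAG-CBFB complex V was at 25.4% and 25.7% of summed FPKM. The log2 ratios of complex V shares of counts were 0.31 with FLAG-CBFB and 0.12 ± 0.08 (SD, n = 2) with hnRNPK, beside -0.12 between the inputs.

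**Figure D2:**
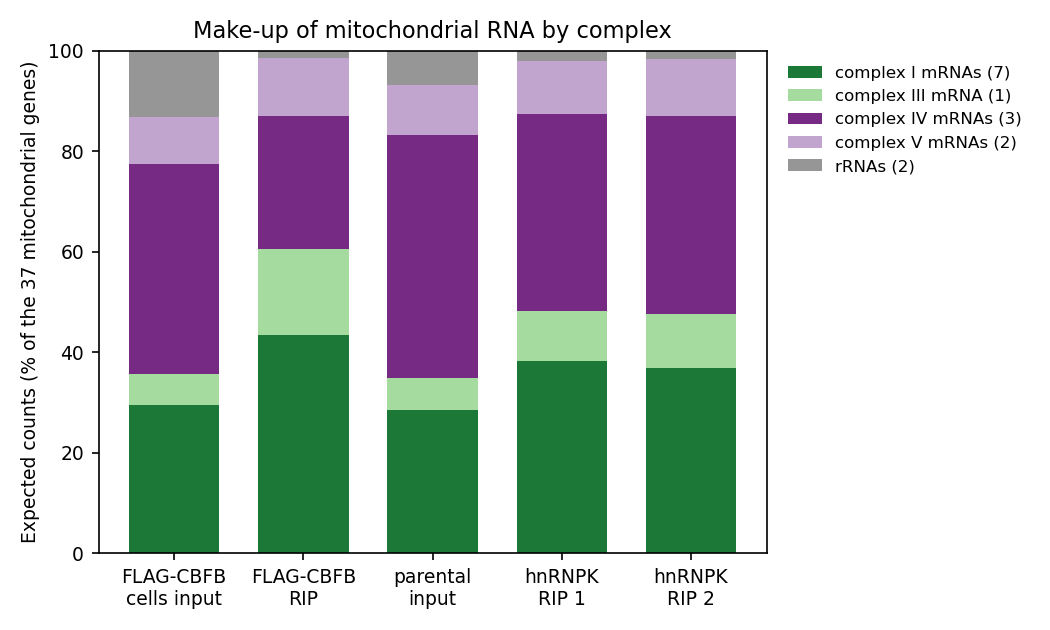
Stacked bars of the percent of mitochondrial expected counts in each library taken by the mRNAs of complexes I, III, IV and V and by the rRNAs. The rRNA segment shrinks from 13.3% and 6.73% in the inputs to at most 1.97% in the RIPs, and the complex III segment is largest in the FLAG-CBFB RIP at 17.0%.

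With FLAG-CBFB, 10 of the 13 mRNAs had a larger share in the RIP than in its input and 3 a smaller share. Over the total of the 13 mRNAs alone 8 had a larger share, and by share of summed FPKM 7 did. The largest difference was for MT-ND3, a small complex I subunit, which went from 1.26% to 5.66% of mitochondrial counts, a log2 ratio of 2.17, and from 3061 to 193984 FPKM. By FPKM it was eighth of the mRNAs in the input and first in the RIP. MT-CYB followed with a log2 ratio of 1.45, then MT-ND1 with 0.79, both well above the median of 0.44 over the 13 mRNAs. The lowest were MT-CO1, at -0.92 (24.5% of the input, 12.9% of the RIP), and MT-CO3, at -0.88 (7.76% and 4.21%), which encode the main catalytic and a core subunit of cytochrome c oxidase. MT-CO2 and MT-ND5 lay at -0.01 and 0.02. The 95% counting interval of a ratio spanned at most 0.04 from end to end, but each arm is 1 library and no test was possible.

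With hnRNPK, 10 mRNAs had a larger share in both repeats, MT-CO1 and MT-CO3 had a smaller share in both, and MT-ATP6 fell on either side of 0. MT-ND1 went from 2.80% of the parental input to 5.34% and 5.16% of the RIPs, a log2 ratio of 0.90 ± 0.04 (SD, n = 2). MT-ATP8, which encodes a small ATP synthase subunit, went from 1.10% to 1.99% and 1.90%, a ratio of 0.83 ± 0.05. MT-ND3 went from 0.784% to 1.38% and 1.36%, a ratio of 0.81 ± 0.02. Against the FLAG-CBFB cell input, in which MT-ND3 took 1.26%, the ratio of MT-ND3 was 0.12. Against the parental input these 3 had the largest ratios, and their repeats lay close together. MT-CYB (0.72 ± 0.09) and MT-ND4L (0.69 ± 0.25) came next, and MT-ND4L was the mRNA on which the repeats differed most, at 3.02% and 2.36%. Between 0.17 and 0.44 lay MT-ND2, MT-ND5, MT-ND6, MT-CO2 and MT-ND4. MT-CO1 went from 26.4% to 17.5% and 17.4%, a ratio of -0.60 ± 0.00, and MT-CO3 from 9.55% to 6.80% and 7.51%, a ratio of -0.42 ± 0.10. The median difference between the repeats over the 13 mRNAs was 0.07 on the log2 scale.

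In edgeR with the summed mitochondrial counts as library size, 12 of the 21 members tested differed in share at an adjusted p under 0.05. The 6 with a larger share were mRNAs: MT-ND1, MT-ND2, MT-ND3, MT-ND4L, MT-ATP8 and MT-CYB. On this scale 0.156% of all genes tested were called higher and 98.0% lower, since the rest of the transcriptome shrank against the mitochondrial total, so adjusted p values stayed close to the unadjusted ones. The 6 with a smaller share were MT-CO1, MT-CO3, both rRNAs, and the tRNAs MT-TQ and MT-TS1. MT-ND1 had a log2 change of 0.90 ± 0.23 (SE; edgeR adjusted p = 0.00011), MT-CO1 one of -0.60 ± 0.17 (edgeR adjusted p = 0.00053) and MT-RNR1 one of -3.51 ± 0.30 (edgeR adjusted p = 1.2e-30). MT-CO2, MT-ATP6, MT-ND4, MT-ND5 and MT-ND6 did not pass, with MT-ND5 nearest (0.44 ± 0.23, edgeR adjusted p = 0.055). MT-ATP8 and both rRNAs were called under all 5 settings run, whereas the FLAG-CBFB cell input in place of the parental one left 3 mRNAs with a larger share (MT-ATP8, MT-ND4L and MT-CYB) and the DESeq2 Wald test left 2 (MT-ATP8 and MT-ND1). Under both of these settings MT-CO1, MT-CO3, MT-TQ and MT-TS1 did not pass (MT-CO1, adjusted p = 0.11 in edgeR with that input and 0.15 in DESeq2). Against the FLAG-CBFB cell input the edgeR log2 changes of MT-TQ and MT-TS1 were positive, at 1.29 and 0.48.

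**Figure D3:**
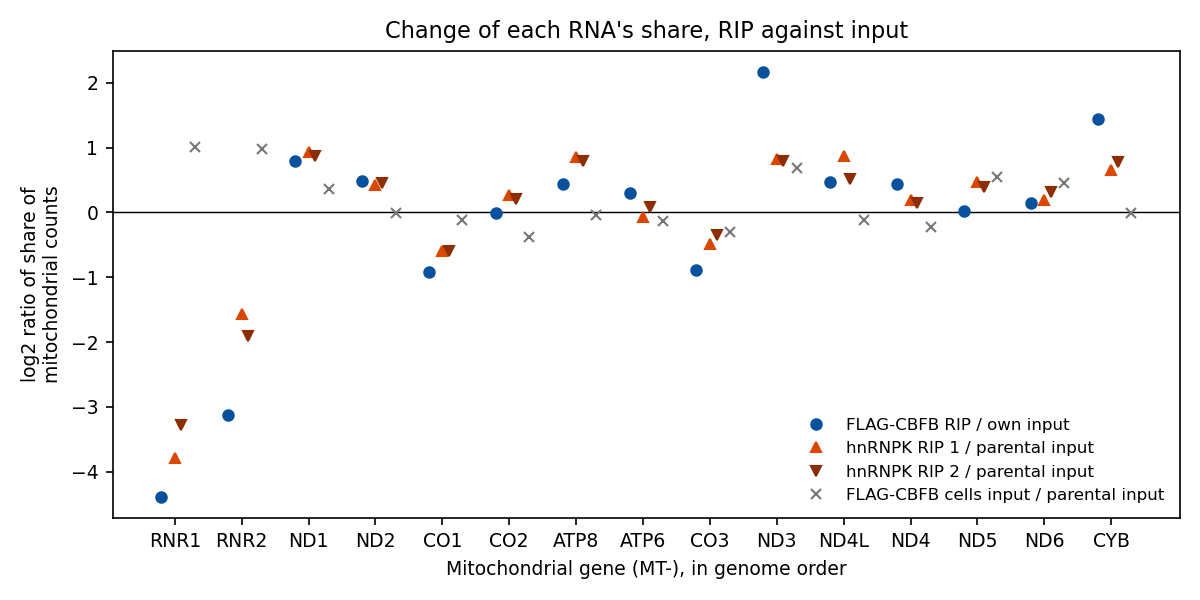
Log2 ratio of each RNA's share of mitochondrial counts, RIP over input, for the 2 rRNAs and 13 mRNAs in genome order, with 1 point for each RIP and a cross for the FLAG-CBFB cell input over the parental input. Both rRNAs, MT-CO1 and MT-CO3 lie below 0 in all 3 RIPs, and MT-ND3 at 2.17 is the highest point of the FLAG-CBFB RIP.

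The FLAG-CBFB and hnRNPK ratios use different inputs and could be set side by side. Of the 13 mRNAs, 11 had the same sign in all 3 RIPs. Across the 13 mRNAs, which share libraries and lie on the same precursors, Pearson's r between the FLAG-CBFB ratio and the mean hnRNPK ratio was 0.81 and Spearman's rho 0.82. The spread was wider with FLAG-CBFB, with a range of 3.09 against 1.52 and 1.48 in the hnRNPK repeats on the log2 scale, and 1.07 between the inputs. MT-ND3 and MT-CYB were higher with FLAG-CBFB by 1.36 and 0.73, while the lowest differences were those of MT-CO3 (-0.46), MT-ND5 (-0.41) and MT-ATP8 (-0.39). With 1 FLAG-CBFB RIP these differences had no test. The inputs themselves differed, with the largest share ratio for MT-ND3 (0.68, FLAG-CBFB cells over parental). MT-ND5, MT-ND6 and MT-ND1 were at 0.54, 0.45 and 0.36, and MT-CYB at -0.0070. Each RIP ratio is taken over its own input, so a higher share in the FLAG-CBFB cell input lowers the FLAG-CBFB ratio. Between the inputs, cell line and library cannot be told apart.

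Neighbouring mRNAs differed in their ratios between libraries. Within the bicistronic pair, the FPKM ratio of MT-ATP8 to MT-ATP6 was 1.35 and 1.38 in the FLAG-CBFB cell input and RIP, and went from 1.13 in the parental input to 2.26 and 1.99 with hnRNPK. For MT-ND4L to MT-ND4, the other such pair, the ratio was 1.22 and 1.20 in the FLAG-CBFB cells, and 1.05, 1.75 and 1.43 in the parental cells. In both pairs the shorter reading frame was higher against the longer in both hnRNPK RIPs than in any other library. The partners overlap, so reads could be split between them: MT-ATP8 ends at position 8572 and MT-ATP6 starts at 8527. The effective length of MT-ATP8 was only 48.8 to 56.3 nt of its 207 nt, which makes its FPKM sensitive to fragment length. MT-CO3 directly follows MT-ATP6, and its FPKM ratio to MT-ATP6 went from 0.784 to 0.347 with FLAG-CBFB and from 0.887 to 0.661 and 0.654 with hnRNPK. The count of MT-CO1 per count of MT-CYB went from 3.93 to 0.760 with FLAG-CBFB and from 4.23 to 1.78 and 1.62 with hnRNPK.

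**Figure D4:**
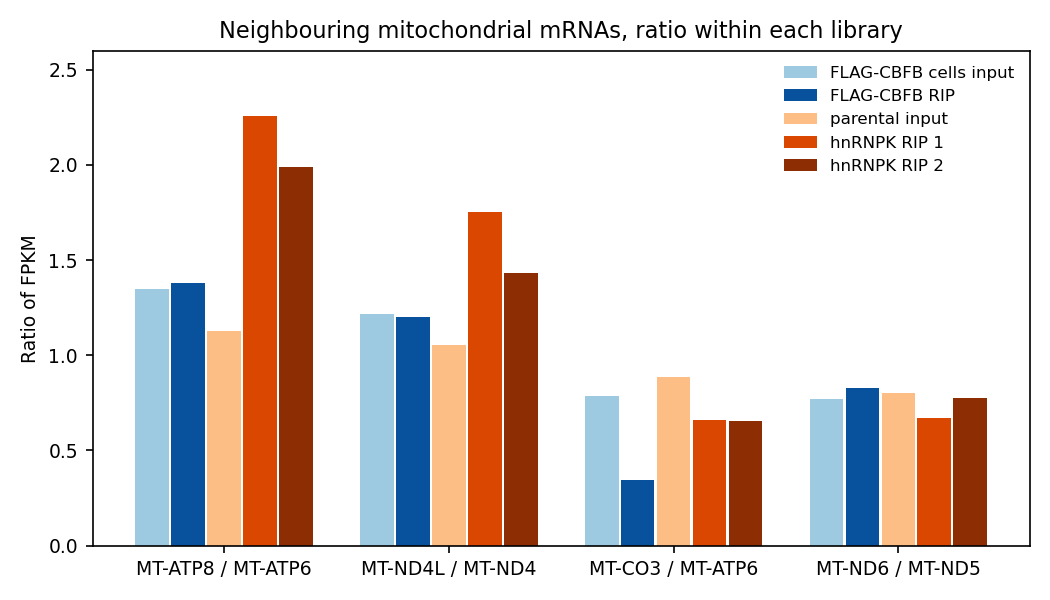
FPKM ratio of 4 pairs of neighbouring mitochondrial mRNAs within each of the 5 libraries (bars from 0). The first 2 pairs are higher in the hnRNPK RIPs than in all other libraries, MT-CO3 to MT-ATP6 is lowest in the FLAG-CBFB RIP at 0.347, and MT-ND6 to MT-ND5 stays between 0.670 and 0.828.

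By strand, the minus-strand genes took 0.880% and 0.971% of mitochondrial counts in the FLAG-CBFB cell input and RIP, and 0.646%, 0.737% and 0.800% in the parental input and hnRNPK RIPs. MT-ND6, a complex I subunit, supplied nearly all of it. As strand assignment is not stated, counts of MT-ND6 cannot be told apart from RNA of the opposite strand. The inputs differed by more (log2 ratio 0.45) than any RIP did from its input (0.14 with FLAG-CBFB, 0.25 ± 0.08 with hnRNPK, SD, n = 2). MT-ND6 and MT-ND5 lie next to each other on opposite strands, and their FPKM ratio was 0.770 and 0.828 in the FLAG-CBFB cells and 0.804, 0.670 and 0.774 in the parental cells.

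The strands differ in base composition, and hnRNPK is known for its preference for C, so the RIP ratios were set against sequence. The 12 plus-strand mRNAs held 29.5% to 36.0% C, and MT-ND6 held 7.05% C and no run of 4 or more C (CCCC, sense strand only). All 12 others held such a run, at up to 14.5 per kb in MT-ATP8, with a median of 8.67 per kb over the 13. For comparison, 87.4% of the 45618 nuclear protein-coding transcripts of 207 to 1812 nt in GENCODE 29 held a run of 4 or more C, with medians of 25.8% C and 3.71 runs per kb. Among the 13 mRNAs, C content and the share ratio had a Pearson's r of 0.11 (Spearman's rho 0.21) with FLAG-CBFB and 0.14 (0.21) with hnRNPK. Without MT-ND6 the values for hnRNPK were 0.33 and 0.20. Runs of C per kb gave 0.15 (0.34) with FLAG-CBFB and 0.26 (0.45) with hnRNPK, and log2 length gave -0.32 (-0.28) and -0.44 (-0.37). G content gave -0.26 (-0.45) with FLAG-CBFB and -0.28 (-0.37) with hnRNPK. Between the inputs, C content, runs of C, G content and log2 length gave values from -0.32 to 0.29. No value was tested, and 13 genes of shared libraries are few. MT-ND6, with the least C, had a share ratio of 0.15 with FLAG-CBFB and 0.25 ± 0.08 with hnRNPK, above MT-CO1 (30.0% C) and MT-CO3 (31.8% C) in every RIP. Counts of MT-ND6 may hold RNA of the opposite strand, so its C content may not describe the RNA counted.

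**Figure D5:**
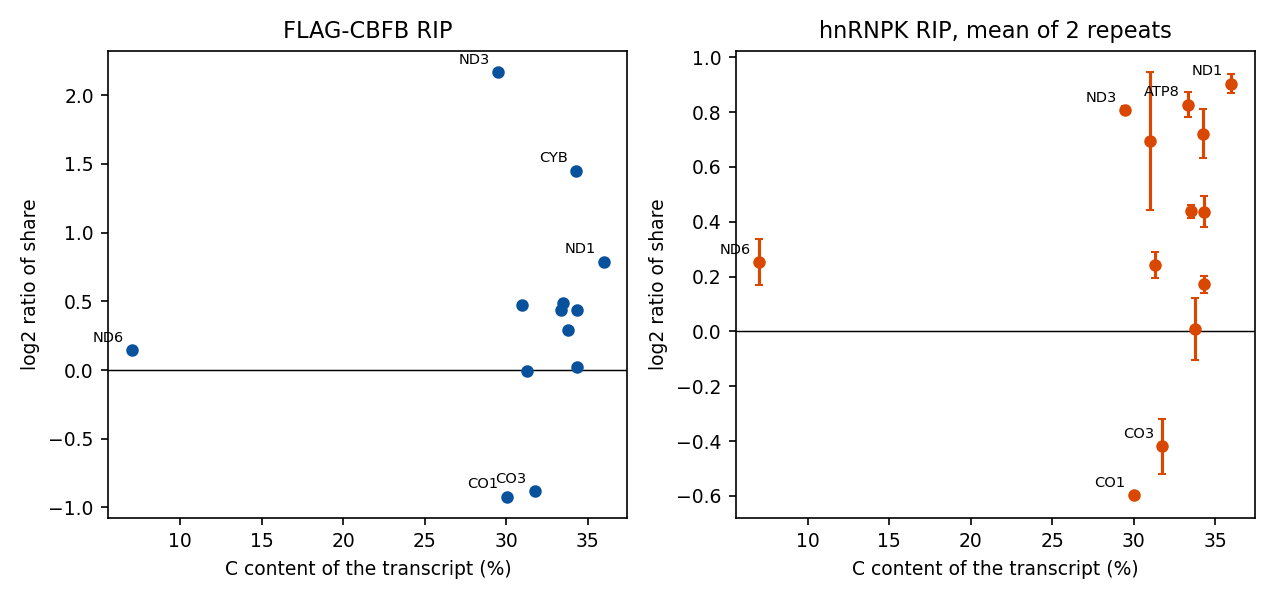
Log2 ratio of share, RIP over input, against the C content (percent) of the 13 mitochondrial mRNAs, with FLAG-CBFB on the left and the mean of the 2 hnRNPK repeats on the right (error bars, SD). MT-ND6 stands alone at 7.05% C on its annotated strand, with ratios of 0.15 and 0.25. The 12 others spread from the lowest to the highest ratios within 29.5% to 36.0% C.

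Nuclear genes for the synthesis, processing, modification and decay of mitochondrial RNA were counted in the same fits. Of a list of 45 such genes, 43 were matched and tested, and in edgeR on the TMM scale 1 was called higher with hnRNPK and 1 lower, beside 15.8% and 0.964% of all genes tested. Their median log2 fold change was -1.07, beside -0.10 over all genes tested. The gene called higher was NSUN4, an rRNA methyltransferase of the mitochondrial ribosome, at 11.1 FPKM before and 3.80 and 3.51 FPKM after immunoprecipitation (edgeR log2 fold change 2.50, adjusted p = 2.2e-06). Its FPKM was lower while its TMM-scale change was positive, with TMM factors of 5.87 for the input and 0.44 and 0.39 for the RIPs. The next highest were ERAL1 (1.97), PTCD2 (1.59) and MTERF4 (0.44), of which none passed the fold threshold. The gene called lower was SLIRP, a partner of LRPPRC in mitochondrial mRNA stability, at 471, 4.75 and 7.17 FPKM (edgeR log2 fold change -2.46, adjusted p = 4.5e-07). The other lowest were PRORP (-1.91), MTERF3 (-1.68) and DDX28 (-1.57). With FLAG-CBFB none of the 43 was above a centred enrichment of 2, beside 4.37% of all genes analysed, and their median was -0.24, beside -0.19 over all genes. With hnRNPK none was above 2 either, beside 8.20% of all genes analysed. Their median there was -1.09, beside -0.11 over all genes, and NSUN4 was at 1.27 ± 0.01 (SD, n = 2).

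Nuclear copies of mitochondrial genes can share reads with the members. The tables listed 388 of them by name, and their counts came to 0.204% to 0.376% of the mitochondrial counts in each library. The 5 with the most counts were MTCO3P12, MTND4P12, MTCO1P12, MTND6P4 and MTATP6P1. MTCO3P12 held the most, at 3.51% and 3.29% of the MT-CO3 count in the FLAG-CBFB cell input and RIP and 2.56%, 3.07% and 2.69% in the parental cells. Which of these reads came from the nuclear copy cannot be told from the counts.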

How the data were processed

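MCF10A input and RIP libraries were sequenced by the authors, and the submitters' processing notes name Trimmomatic, STAR, RSEM and hg19, with versions and strand setting not given in the sources used here. The deposited tables hold, per gene, RSEM expected counts, FPKM by the authors, and lengths. Expected counts were rounded for edgeR 4.0.16 (quasi-likelihood) and DESeq2 1.42.0 in R 4.3.3. Genes needed a mean of 10 counts over the 3 libraries, and p values were adjusted by Benjamini-Hochberg over all genes tested. Shares used unrounded counts over the 37 members, with Wilson or exact counting intervals. Enrichment used log2(FPKM + 1), which understates changes of low genes. Differences with FLAG-CBFB had no replicate and no test. Identifiers were named from GENCODE 29 and a gene-name table (50276 of 56632), and sequences came from GENCODE 29 transcripts on GRCh38 by name, not by coordinate. The scripts were tested on simulated data. The symbol rule uses no measured value, but this gene set and the lists were taken up with earlier results of these data known. Named were all mRNAs and rRNAs, tRNAs with at least 1000 counts over the 5 libraries, the 5 nuclear copies with most counts, and the 4 highest and 4 lowest of the 45 nuclear genes by edgeR fold change; MT-TQ and MT-TS1, and the 4 tRNAs without counts, were named after their values were seen. Alternatives covered scaling, test, filter, pseudocount, input, left-out repeats and pseudogene counts.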

Additional observations from a re-analysis of the deposited data

Results flagged for a closer look

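Some members moved one way with FLAG-CBFB and the other way in both hnRNPK repeats, and these differences were not tested. MT-CO2 had a log2 share ratio of -0.0070 with FLAG-CBFB and 0.28 and 0.21 with hnRNPK. MT-TQ had 0.28 with FLAG-CBFB and -2.17 and -2.81 with hnRNPK, from 1 and 15 counts in the FLAG-CBFB cells and 23, 57 and 33 counts in the parental cells. MT-TS1 had 0.069 with FLAG-CBFB and -2.41 and -2.37 with hnRNPK, from 6 and 78 counts and from 75, 157 and 146 counts. The 95% counting intervals of the FLAG-CBFB values of both tRNAs span 0 (-2.42 to 5.67 for MT-TQ and -1.12 to 1.56 for MT-TS1).

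Of the 5 nuclear copies with the most counts, some were higher relative to the gene they are named after in a RIP than in its input, and others lower. MTND4P12 was at 0.0275% of the MT-ND4 count in the parental input and at 0.260% and 0.265% in the hnRNPK RIPs, 9.45 and 9.66 times as much, whereas it was at 0.0314% and 0.0290% in the FLAG-CBFB cells. MTND6P4, which lies near it on chromosome 5 in GENCODE 29, was at 0.980 and 0.850 times its ratio to MT-ND6 in the input with hnRNPK, and at 0.911 times with FLAG-CBFB. MTATP6P1 relative to MT-ATP6 was 2.06 and 1.97 times the input with hnRNPK and 1.05 times with FLAG-CBFB. MTCO3P12 relative to MT-CO3 was 1.20 and 1.05 times the input with hnRNPK and 0.936 times with FLAG-CBFB. MTCO1P12 relative to MT-CO1 was 1.09 times the input with FLAG-CBFB and 0.802 and 0.767 times with hnRNPK. What moved these ratios was not tested.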

How the results depend on the processing

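No paired analysis was possible because input and RIP libraries have at most 1 replicate number in common. On the TMM scale the 21 members called became 15 with library totals alone, where 1.18% of all genes were called. A minimum of 50 counts, under which fewer members were tested, gave 18 (15.6% of all genes). No filter, under which more were tested, gave 25 (9.42% of all genes). The other tested settings gave 21, with 15.3% to 22.6% of all genes called. With either repeat left out no test was possible. Members called enriched ranged over 13 to 14 with FLAG-CBFB and 13 to 15 with hnRNPK, a 2-fold threshold included. In the main setting, above 4-fold, 4.37% and 8.20% of all analysed genes were enriched. The shares of all genes under the other settings, the 2-fold threshold among them, are not given here. These counts therefore describe the members only. On the mitochondrial-total scale the 6 and 6 members called with a larger and a smaller share became 2 and 2 with DESeq2 and 3 and 2 with the FLAG-CBFB cell input. In the main setting 0.156% of all genes tested were called higher on this scale and 98.0% lower, and these shares are not given here for the other settings. Without repeat 1 and without repeat 2, 11 and 10 mRNAs had a larger share with hnRNPK, against 11 for the mean of the repeats and 7 by share of summed FPKM. The rRNA log2 share ratio stayed negative, at -3.66 (FPKM), -3.28 (nuclear copies added) and -2.30 (other input) with FLAG-CBFB, and at -2.31 (FPKM) and -2.89 (other input) with hnRNPK, where leaving out a repeat gave -2.06 to -1.77.

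Of 150 alternative values for the 15 mRNAs and rRNAs in both RIP kinds, 13 changed sign. With FLAG-CBFB these were MT-ND5 (-0.16) and MT-ND6 (-0.040) over the mRNA total, and MT-ATP6 (-0.0065), MT-ND5 (-0.27) and MT-ND6 (-0.16) by FPKM. With hnRNPK they were MT-CO2 (-0.028), MT-ND4 (-0.11) and MT-ND6 (-0.0071) by FPKM, and MT-ND5 (-0.10) and MT-ND6 (-0.19) with the other input, and MT-ATP6, whose repeats lay on either side of 0, over the mRNA total (-0.07), by FPKM (-0.26) and without repeat 2 (-0.07). Using the mRNA total lowers every ratio by the log2 share ratio of the mRNA class, 0.19 with FLAG-CBFB and 0.074 with hnRNPK. The cause of the other sign changes was not tested. By summed FPKM, which weights short genes more, shares of classes, strands and complexes moved by up to 19.7 percentage points (complex V in hnRNPK RIP 2, 11.5% to 31.1%), and adding nuclear copies moved none by over 0.195 points. With 1 input per cell line, variation between inputs could not be measured.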
